A study of Equus caballus with 34 samples.

Results

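The genes described here encode the proteasome of the horse (Equus caballus), measured in the 2 cell layers of the dominant ovarian follicle. They were chosen by name and by signal over background, and no measured difference is part of that rule. The choice was made with earlier results of these data known. A probe was a member if its description on the array held both "proteasome" and "subunit", or if its gene name began with PSMA, PSMB, PSMC, PSMD or PSME, and if the scanner software marked its spot as well above background on 5 or more of the 34 arrays. Of 43603 non-control probes, 94 matched the names and 92 also passed the background filter, which 36629 probes passed in all. The 92 probes belong to 47 named loci, of 12715 gene names on the array. Of these, 44 are genes of the proteasome, its regulators or its assembly factors, covered by 84 probes, and 3 are not (PSMC3IP, PDIA2 and LOC100071832) and are given apart.

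Granulosa cells (GC) and the theca wall (TW) were each sampled at an early dominant (ED), a late dominant (LD) and a preovulatory (PO) stage, with 1 single-colour Agilent array per sample. There were 5 arrays of each GC stage, 5 of TW ED, 9 of TW LD and 5 of TW PO. The labels name no treatment, strain or age. The design text calls the samples biological replicates, so p-values are taken to measure the spread between such samples. That text speaks of 5 samples per group, but 9 samples carry the label TW LD and nothing singles out 5 of them, so all 9 were used. Whether some of the 9 repeat the same RNA is not known here. P-values that involve TW LD count each of them as a sample of its own. The theca wall is a mixed tissue of theca, vessel and immune cells. In bulk RNA of either layer, fewer cells of a type and less RNA per cell cannot be told apart.

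The proteasome is the barrel-shaped protease that degrades proteins tagged with ubiquitin. Its 20S core is made of stacked rings of alpha and beta subunits, of which PSMB5, PSMB6 and PSMB7 carry the cutting sites. The 19S regulator that caps the core has a base with ATPases (PSMC genes), which unfold the substrate, and a lid (most PSMD genes), whose subunit PSMD14 removes the ubiquitin chain. Under interferon, and in immune cells, PSMB8, PSMB9 and PSMB10 replace the cutting subunits to form the immunoproteasome, and PSME1 and PSME2 form an alternative cap. The granulosa layer supports the oocyte and makes oestradiol until the surge of luteinizing hormone, after which it stops dividing and turns towards luteal function.

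By role, the members held 31 subunits of the constitutive 26S particle, called core subunits below. They were the 7 alpha ring genes, 4 beta ring genes without a cutting site, the 3 cutting subunits, 6 base ATPases, the 2 base scaffold genes PSMD1 and PSMD2, and 9 lid genes. The 31 genes had 55 probes, and 20 of them had 1 probe. Apart from these stood the 5 immunoproteasome genes, the 4 assembly factors PSMD5, PSMD9, PSMD10 and POMP, and 4 others (the tissue-restricted subunits PSMA8 and PSMB11, the activator PSME4 and the inhibitor PSMF1). PSME3 and PSMD4 were not analysed here. Both name-matching probes that failed the filter, of LOC100051236 and LOC100053922, were well above background on 1 array each.

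The probes on which the following results turn are printed from the deposited files, 5′ to 3′ as the files give them, so that it can be seen which stretch of transcript each value reads. Capitals mark the run that a probe shares with all the overlapping probes of its gene, and a probe without capitals has no such neighbour or, for POMP, no run common to all 3 of its probes. All probes are 60 bases long. The coordinates are those of the array files, and the sources used here do not name their genome build, and a span above 60 bases means that the file places the probe across a wider stretch. "Un" is the files' name for unplaced sequence.
PSMB8, A_69_P038351, chr20:26852202-26852418: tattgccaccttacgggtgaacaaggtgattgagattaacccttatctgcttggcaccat
PSMB9, A_69_P038362, chr20:26867609-26867668: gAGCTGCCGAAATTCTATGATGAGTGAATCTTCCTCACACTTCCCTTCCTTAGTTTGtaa
PSMB10, A_69_P081746, chr3:18195257-18195443: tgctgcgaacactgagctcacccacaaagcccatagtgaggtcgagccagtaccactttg
PSMD9, A_69_P065509, chr8:22102173-22102232: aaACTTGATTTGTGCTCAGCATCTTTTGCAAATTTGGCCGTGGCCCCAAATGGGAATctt
PSMD9, A_69_P065506, chr8:22102239-22102298: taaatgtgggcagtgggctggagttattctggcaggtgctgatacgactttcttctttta
PSMD10, A_69_P092356, Un:26574022-26574081: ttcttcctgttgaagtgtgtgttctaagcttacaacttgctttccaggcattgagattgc
PSMD10, A_69_P092357, Un:26573959-26574018: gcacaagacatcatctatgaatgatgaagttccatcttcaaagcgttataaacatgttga
POMP, A_69_P039956, chr17:8317350-8317409: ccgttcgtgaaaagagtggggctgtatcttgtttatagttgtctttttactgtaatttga
PSMD6, A_69_P055306, chr16:25279671-25279730: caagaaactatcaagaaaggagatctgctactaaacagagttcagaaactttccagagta
PSMD14, A_69_P041956, chr18:30400446-30400505: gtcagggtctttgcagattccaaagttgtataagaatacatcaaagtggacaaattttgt
PSMC3IP, A_69_P032990, chr11:19227687-19227829: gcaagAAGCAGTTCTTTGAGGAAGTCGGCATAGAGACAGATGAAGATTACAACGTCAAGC

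The 5 PSMB9 probes share 56 bases and the 5 PSMC3IP probes share 55, so the several probes of these genes read nearly the same stretch. PSMD9 has 4 probes that share 55 bases and a 5th, A_69_P065506, that lies apart from them, and the 2 PSMD10 probes do not overlap. The separate probes of PSMD9 and of PSMD10 therefore give a second reading, though of a stretch close beside the first, and the PSMB9 probes do not. Of the 94 name-matching probes, 10 share a run of at least 16 bases with a probe of another gene. The PSMD9 probe A_69_P065506 is among them, with a run of 16 bases. In the RefSeq gene order of the TB-T2T assembly, TAP2, PSMB8, TAP1 and PSMB9 follow each other on chromosome 20, PSMB10 lies on chromosome 3, and PSME1 and PSME2 lie near each other on chromosome 1. The 46 member genes with a place in that order lie on 23 chromosomes.

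All values below are log2 of the processed signal minus the array's 75th percentile, so a level of 0 is the 75th percentile of that array. A gene is read by its member probe with the highest mean, a gene is called if limma gave it an adjusted p under 0.05 (Benjamini-Hochberg, over every probe in the fit), and a difference is given with its standard error (SE). Levels of different genes were not compared, since probes differ in brightness. From 64.3% to 82.5% of an array's spots were well above background and 54 to 375 were saturated. Slide 7, with array 4 of TW ED, array 4 of TW PO and arrays 6 and 7 of TW LD, held 1285 to 1718 outlier-flagged spots per array against 69 to 593 elsewhere, and flagged spots were dropped. As a result, 16 of the 31 core subunits were measured on all 34 arrays, and a smaller n is given where a spot was dropped. Each GC slide held 1 array of every stage, while both layers lay together on 2 of the 10 slides and there only at LD, so layer and slide can hardly be told apart. These positions come from the file headers, and the design text instead says that no group was missing from any slide, so values within slides and with slide as a block rest on the headers.

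The marker genes of each layer were in their place, but marker levels in both layers differed between stages or between arrays. Theca and stroma markers (11 genes) had a mean log2 level of 2.44 to 2.91 at TW ED and -2.20 to -0.85 at GC ED. The mean log2 level of 11 granulosa markers was 2.11 to 3.18 on the GC ED arrays and -2.32 to -1.08 on the TW LD arrays. On TW ED arrays 3 and 5 it reached -0.32 and 0.27, against at most -2.06 on the other 3 TW ED arrays. In GC it was -0.17 to 0.36 at PO, and at LD it was 0.49 and -0.11 on arrays 2 and 3 and at least 2.07 on arrays 1, 4 and 5. The 19 leukocyte markers averaged -6.10 to -4.67 in GC ED and -4.85 to -2.82 in GC PO, with TYROBP and CD52 not well above background on any GC ED array. In the theca wall the leukocyte average was -1.81 to -0.49 at LD and -0.63 to 0.82 at PO, and 14 of its 19 genes rose from LD to PO (8.95% of all probes were called higher there). The mean of 17 cell division genes was 1.08 to 2.10 in GC ED and -3.47 to -2.07 in GC PO, and 16 of the 17 fell, against 19.3% of all probes called lower in GC PO minus ED. From ED to PO in GC, the median difference was -0.74 for the theca and stroma markers and -0.04 for 11 endothelial markers. It was 1.06 for 10 smooth muscle and pericyte markers. The endothelial and the muscle medians rest in part on dim spots. TEK, EMCN, ESAM, MYH11, CNN1 and DES were not well above background on any GC ED array. The same held at GC PO for TEK, TIE1, KDR, EMCN and MYH11. A change of the cell mix and a change within the cells cannot be told apart here. How much of any result below moved with these markers was not tested.

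Few core subunits were called between stages, but their medians per array lay higher at PO than at ED in GC and lower at PO than at LD in TW. To show this, each gene was set against the mean of its own group means, and the median deviation of the 31 genes was taken on each array. On the GC ED arrays this median was 0.44, 0.11, -0.11, -0.27 and -0.23, and on the GC PO arrays it was 0.34, 0.29, 0.50, 0.46 and 0.54. Only GC ED array 1 lay within the GC PO range, and the GC LD arrays, at 0.18, 0.29, 0.35, 0.14 and -0.33, spread over both. On the TW PO arrays it was -0.23, -0.29, -0.27, -0.32 and -0.57, below 8 of the 9 TW LD arrays, whose lowest, median and highest values were -0.24, -0.03 and 0.45. TW ED overlapped both, at -0.14, -0.45, -0.12, -0.18 and -0.05.

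**Figure D1:**
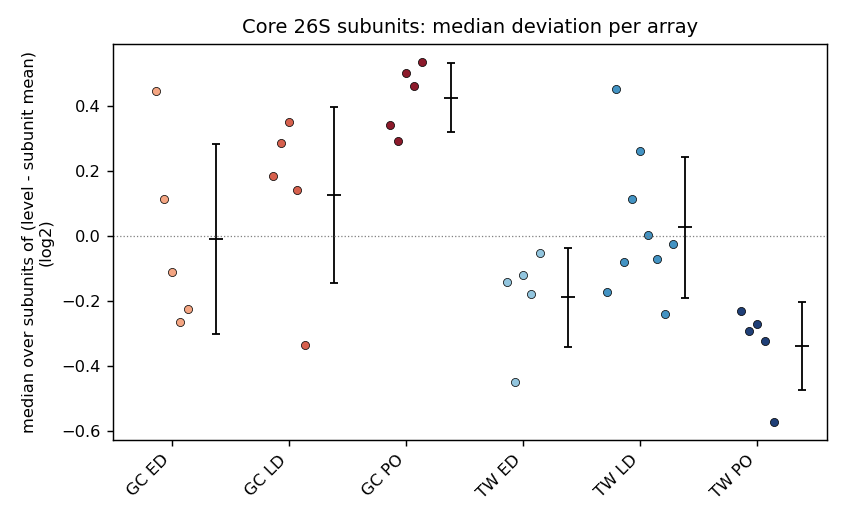
Median deviation of the 31 core subunits from the mean of each gene's group means (log2) on each array, by layer and stage. Points are arrays and the bars give the group mean ± SD. The GC mean goes from -0.01 ± 0.29 at ED to 0.43 ± 0.10 at PO (n = 5 each), and the TW mean from 0.03 ± 0.22 at LD (n = 9) to -0.34 ± 0.13 at PO (n = 5).

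In granulosa cells, 8 of the 31 core subunits rose from ED to PO and none fell. That is 25.8%, against 20.7% of all probes called higher and 40.0% called in either direction, so the share of core subunits called is near the background. What was broader was the direction of the values, with 28 of the 31 differences above 0 and a median of 0.51, against a median of 0.10 over all probes. The single core differences ran from -0.46 to 1.19. The count moved with the arrays used: it was 3 without GC ED 4, without GC PO 3 or without GC PO 5, 4 without GC ED 3 or GC ED 5, and up to 12 without another array. Under quantile normalization, and in the deposited value table, the count was 2 and the core median was 0.17 and 0.15.

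The lid gene PSMD6 had the lowest adjusted p among the core subunits of GC. Its level was 2.91, 2.39, 2.45, 2.29 and 2.21 on the GC ED arrays, 2.68, 3.48, 3.16, 2.55 and 2.33 at LD, and 3.47, 3.36, 3.57, 3.78 and 3.60 at PO. Every GC PO array lay above every GC ED array, while LD overlapped both. The rise was 1.11 ± 0.24 (SE, n = 5 and 5; adjusted p = 0.00249, limma), and it was called under all 5 scalings tried. The theca wall held PSMD6 at 2.65, 2.24, 2.69, 2.11 and 2.78 at ED and 2.59, 2.66, 2.71, 2.75 and 2.30 at PO, which overlap.

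Among the cutting subunits of the core, PSMB7, which has the trypsin-like site, stood apart from the other two in granulosa cells. PSMB7 read 3.98, 3.77, 3.58, 3.05 and 3.42 in GC ED and 4.35, 4.26, 4.30, 4.41 and 4.44 in GC PO, with no overlap, a rise of 0.79 ± 0.23 (n = 5 and 5; limma adjusted p = 0.0133). PSMB5, with the chymotrypsin-like site, read 3.52, 3.13, 2.73, 2.30 and 2.82 in GC ED and 2.83, 2.83, 2.83, 2.95 and 2.84 in GC PO. The PSMB5 PO arrays all lay inside the ED range, and the difference was -0.04 ± 0.22 (limma adjusted p = 0.894). PSMB6, with the caspase-like site, read 4.10, 3.86, 3.50, 3.23 and 3.52 in GC ED and 3.33, 3.52, 3.77, 3.63 and 3.69 in GC PO, a difference of -0.05 ± 0.22 (limma adjusted p = 0.87). The difference between the changes of these genes was not tested. PSMB7 was called under 2 of the 5 scalings in this comparison.

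The other called genes lay in the alpha ring, the base and the lid. PSMA6, an alpha ring gene, read 4.10, 3.69, 3.56, 3.37 and 3.40 in GC ED and 4.13, 4.42, 4.39, 4.39 and 4.44 in GC PO, without overlap, and rose by 0.73 ± 0.24 (n = 5 and 5; limma adjusted p = 0.0263). The base ATPase PSMC4 read 2.33, 0.94, 1.91, 1.66 and 1.73 against 2.41, 2.68, 2.89, 2.83 and 2.72, also without overlap, and rose by 0.99 ± 0.30 (n = 5 and 5; limma adjusted p = 0.0181). PSMD7, the lid partner of PSMD14, read 3.61, 3.15, 3.26, 3.03 and 2.98 against 3.89, 3.42, 3.95, 3.96 and 4.07, where PO array 2 lay below ED array 1, and rose by 0.65 ± 0.22 (n = 5 and 5; limma adjusted p = 0.0257). The remaining 3 were the alpha ring gene PSMA2 (a rise of 0.64), the ATPase PSMC1 (0.64) and the lid gene PSMD13 (0.60). PSMA2 was called under 3 scalings, and PSMA6, PSMC1, PSMC4, PSMD7 and PSMD13 under 2. Of the 10 fits that each left out 1 array, 7 ended the call of PSMC1, 6 that of PSMA2, 5 that of PSMA6 and 4 each those of PSMD7 and PSMD13.

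By class, 2 of 7 alpha ring genes, 0 of 4 beta ring genes without a site, 1 of 3 cutting subunits, 2 of 6 ATPases, 0 of 2 scaffold genes and 3 of 9 lid genes were called in this GC comparison. The medians of the classes were 0.54, 0.53, -0.04, 0.34, 0.51 and 0.60. The cutting subunits thus had the lowest class median. PSMD14, the ubiquitin-removing lid enzyme, differed by 0.38 ± 0.25 (n = 5 and 5; limma adjusted p = 0.246). The largest core value, PSMB3 at 1.19 ± 0.77 (limma adjusted p = 0.238), was not called and turned on GC ED array 2, at -2.22, where the other 4 ED arrays read 2.15 to 3.53. The alpha ring gene PSMA4 had a value of -0.46 ± 0.21 (limma adjusted p = 0.0895), and in 3 of the other 4 scalings it was called lower. PSMB3 and PSMA4 are named here after their values were seen.

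**Figure D2:**
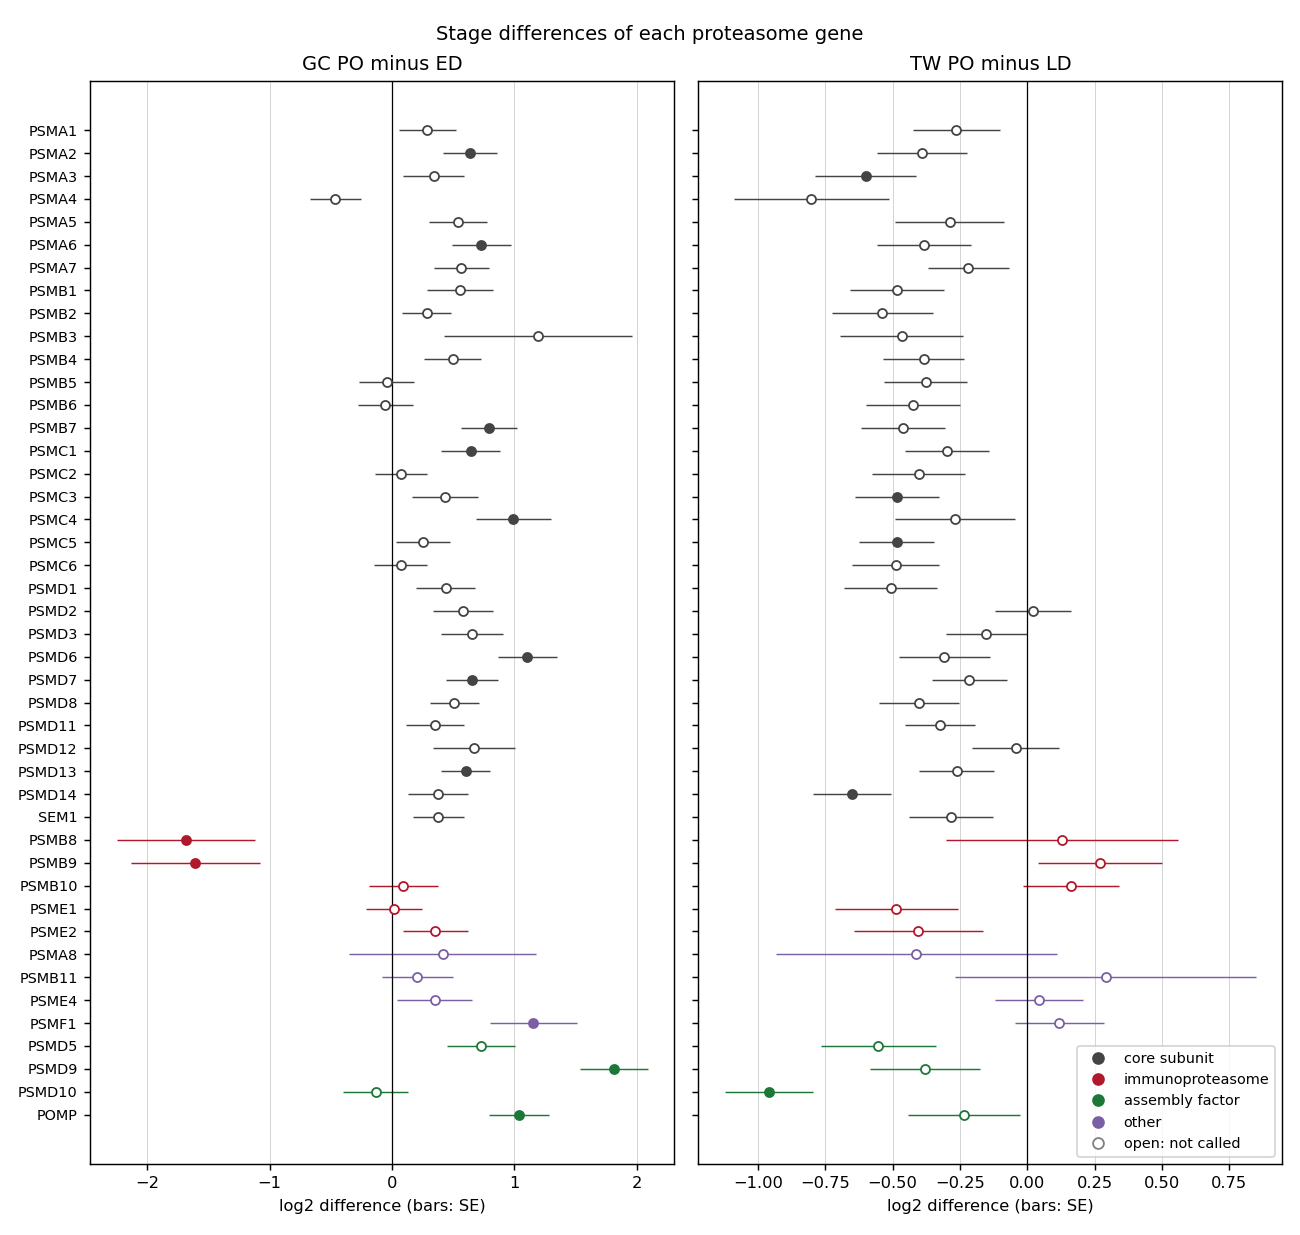
Log2 difference ± SE of each of the 44 proteasome genes, GC PO minus ED at left and TW PO minus LD at right, on different horizontal scales; filled points are called, and colours mark core subunits (grey), immunoproteasome genes (red), assembly factors (green) and others (purple). The core median is 0.51 in the left panel and -0.38 in the right, while PSMB8 and PSMB9 lie far left of the rest in GC and PSMD9 far right.

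The GC difference from ED to PO was not placed in a single step. From ED to LD, 1 of 36620 probes was called in all, 0.00273%, and none of the 31 core subunits, with limma also giving no core subunit an unadjusted p under 0.05 (5326 probes had one). The core median was 0.13, with 26 of 31 values above 0. From LD to PO, 13.9% of all probes were called and again no core subunit, with 6 of them at an unadjusted p under 0.05 in limma (11572 of all probes), a median of 0.31 and 28 of 31 values above 0. That median was 0.02 with quantile normalization, 0.0056 with normexp and 0.02 in the deposited table, near 0 in each. It was not below 0 in any of the 22 alternatives, but the size of this step is not settled. With all 34 arrays in the fit 5 core subunits were called in this step, with median centring 2, and without GC LD 3 also 2. Among all members, the smallest limma p-values of the step from ED to LD belonged to PSMD9 (0.85 ± 0.28, adjusted p = 0.227), POMP (0.52 ± 0.24, adjusted p = 0.349) and the ATPase PSMC4 (0.59 ± 0.30, adjusted p = 0.386).

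Within the 5 GC slides, each with 1 array per stage, the median core difference of PO minus ED was -0.01 on slide 2 and 0.23, 0.68, 0.84 and 0.84 on the others. The array behind the value near 0 is GC ED 1, which had the highest core median of its group. PO minus LD was positive on all 5 slides, from 0.02 to 0.94. LD minus ED was positive on 3 of the 5, from -0.30 to 0.44.

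In the theca wall, most core values lay below 0 at the last step and few were called. From LD to PO, 4 of the 31 core subunits fell and none rose. That is 12.9%, against 4.52% of all probes called lower and 13.5% called in either direction. Of the 31 values, 30 were below 0, with a median of -0.38 and a range from -0.80 to 0.02, while the median over all probes was 0.08. The called count ranged from 1 to 7 when single arrays were left out. It was 1 without TW LD 2, TW LD 4, TW LD 5, TW PO 1, TW PO 3 or TW PO 5, 7 without TW LD 1, and 1 with slide as a block.

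The clearest of the 4 was PSMD14. It read 2.75, 3.06 and 3.55 (lowest, median and highest) on the 9 TW LD arrays and 2.59, 2.60, 2.40, 2.45 and 2.23 on the TW PO arrays. No PO array reached the lowest LD array, the difference was -0.65 ± 0.14 (n = 5 and 9; limma adjusted p = 0.0114), and the call held under every alternative run for it. PSMD14 was also the core subunit called in TW PO minus ED, the only one of 31, at -0.48 ± 0.16 (n = 5 and 5; limma adjusted p = 0.0406). That is 3.23% of the core against 23.7% of all probes, and the call was lost in 9 of its 22 alternatives, among them leaving out TW ED 1, 3 or 5, or TW PO 1, 3, 4 or 5.

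The other 3 were the alpha ring gene PSMA3 and the ATPases PSMC3 and PSMC5. PSMA3 read 3.01, 3.52 and 3.99 (lowest, median and highest, n = 9) at TW LD and 3.1, 3.02, 2.85 and 2.52 (n = 4) at TW PO, overlapping at the lowest LD array, and fell by 0.60 ± 0.19 (limma adjusted p = 0.0432). PSMC5 read 3.20, 3.51 and 3.89 (n = 8) against 3.09, 3.20, 3.02, 3.18 and 2.89 (n = 5), where the highest PO array met the lowest LD array, and fell by 0.48 ± 0.14 (limma adjusted p = 0.0309). PSMC3 read 1.76, 2.11 and 2.54 (n = 9) against 1.79, 1.89, 1.70, 1.56 and 1.32 (n = 5), with 2 PO arrays inside the LD range, and fell by 0.48 ± 0.16 (limma adjusted p = 0.0469). These 3 calls were fragile: with slide as a block the adjusted p was 0.114 for PSMA3, 0.0556 for PSMC5 and 0.112 for PSMC3, and leaving out TW PO 5 gave 0.157, 0.0936 and 0.144.

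The cutting subunits in the theca wall had values of -0.38 (PSMB5, limma adjusted p = 0.104), -0.43 (PSMB6, 0.107) and -0.46 (PSMB7, 0.0581) from LD to PO. These values ran from -0.46 to -0.38, near the core median. PSMB7 read 3.24, 3.54 and 4.02 at LD and 2.97, 3.30, 3.33, 3.25 and 2.98 at PO. From ED to LD no probe of 36619 was called (0%), with 5095 at an unadjusted p under 0.05 in limma, 3 of them core subunits. All 31 core values were above 0 in that step, from 0.07 to 0.49 with a median of 0.21, against 0.06 over all probes. Within slides 1, 4, 6, 7 and 9 the median core value of that step was -0.04, 0.39, 0.29, 0.11 and 0.04. On slide 1, 12 core values were above 0. On TW ED array 2, no core subunit lay above its TW ED mean. The smallest p-values belonged to the ATPase PSMC2 (0.49 ± 0.17, adjusted p = 0.227), POMP (0.51 ± 0.19, adjusted p = 0.262) and PSMD6 (0.42 ± 0.17, adjusted p = 0.291). Within the slides holding both stages, the median core value of PO minus LD was -0.14, -0.18, -0.44, -0.29 and -0.56.

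Whether the stage change differed between the layers was tested directly, as PO minus ED in GC less PO minus ED in TW. Of the 31 core subunits, 9 were called, all higher in GC, or 29.0%, against 12.8% of all probes called higher and 28.5% called in either direction. The median core value was 0.65 and 30 of 31 were above 0, against a median of -0.14 over all probes. The largest called core values were PSMD6 at 1.00 ± 0.29 (adjusted p = 0.0108), PSMB7 at 0.99 ± 0.28 (adjusted p = 0.00919) and PSMA6 at 0.91 ± 0.30 (adjusted p = 0.0216). The others were PSMC1, PSMA2 and PSMD14 (each 0.86), PSMD7 (0.78), PSMD1 (0.76) and PSMD8 (0.73). PSMA2, PSMA6 and PSMD8 were called under all 5 scalings. Of 29 alternatives, PSMB7 lost its call in 1, where the limma adjusted p was 0.487. PSMD6, PSMC1 and PSMD7 lost theirs in 3 each, at a limma adjusted p up to 0.126, 0.330 and 0.165. PSMD14 lost its call in 2, at a limma adjusted p up to 0.147. PSMD1 (limma adjusted p = 0.0484) lost its call in 21 of 29 alternatives, at an adjusted p up to 0.266, and of the 20 fits that left out 1 array it kept it only without GC ED 1, GC PO 2, GC PO 4 or TW ED 2. Over the scalings the core median was 0.34 to 0.97. Leaving out GC ED 1 gave 16 called core subunits.

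Averaged over the stages, core subunits were higher in GC than in TW on this scale. Of 31, 21 were called higher and none lower, or 67.7%, against 20.3% of all probes called higher and 52.4% in either direction. The median was 0.28, with a range from -0.01 to 0.74, and the median of all probes was -0.13. The classes contributed 4 of 7 alpha ring genes, 1 of 4 beta ring genes without a site, 2 of 3 cutting subunits, 5 of 6 ATPases, 1 of 2 scaffold genes and 8 of 9 lid genes. This comparison depended on the scaling: the core and all-probe medians were 0.87 and 0.47 with median centring, 0.05 and 0.10 with quantile normalization, and 0.10 and 0.12 in the deposited table.

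The scaffold gene PSMD1 and the lid gene PSMD11 showed the layer difference most plainly. PSMD11 read 2.96, 2.87, 2.93, 2.51 and 2.64 in GC ED against 2.15, 2.05, 2.07, 2.05 and 2.34 in TW ED. At PO it read 3.14, 2.77, 2.86, 3.83 and 3.06 against 2.04, 2.22, 2.20, 1.83 and 1.98. The layers did not overlap at either stage, and the difference over all stages was 0.73 ± 0.10 (n = 15 and 19; limma adjusted p = 2.87e-07). PSMD1 differed by 0.74 ± 0.11 (adjusted p = 2.24e-06), PSMC2 by 0.61 ± 0.11 (adjusted p = 1.45e-05), PSMD7 by 0.60 ± 0.10 (adjusted p = 3.03e-06) and PSMA4 by 0.60 ± 0.14 (adjusted p = 0.000653). Of the 21 called genes, 7 kept their call under all 5 scalings (PSMB7, PSMC1, PSMC2, PSMD1, PSMD7, PSMD11 and PSMD14), while PSMC5, PSMD8, PSMD13 and SEM1 turned sign under at least 2 of them. On the 2 slides with both layers at LD, the median core difference was -0.29 on slide 2 and 0.42 on slide 8.

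**Figure D3:**
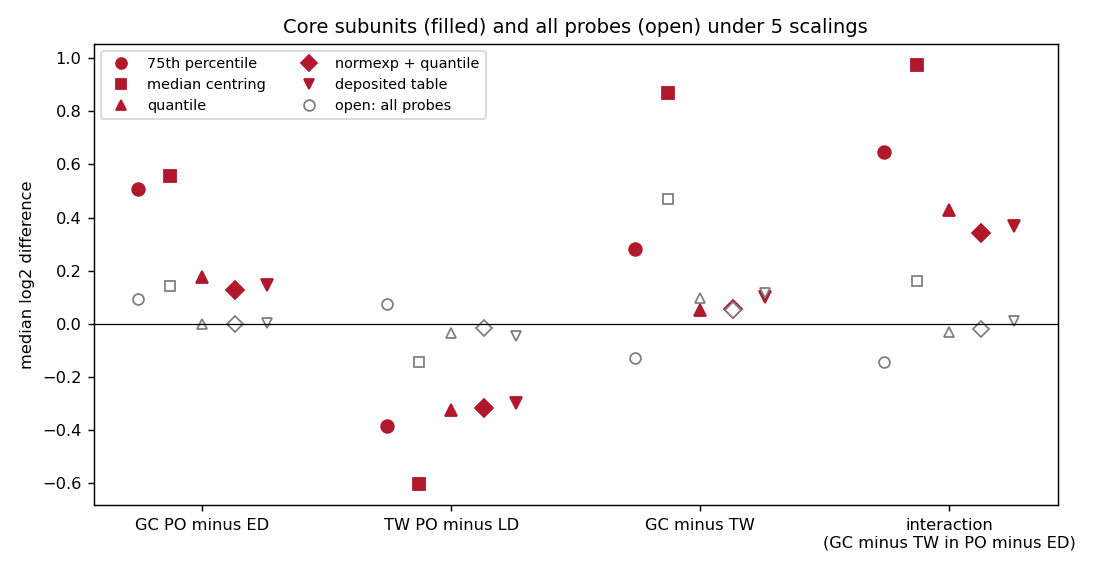
Median log2 difference of the core subunits (filled) and of all probes (open) under 5 scalings in 4 comparisons. Over the 5 scalings the core median stays above the all-probe median in GC PO minus ED (0.13 to 0.56) and below it in TW PO minus LD (-0.60 to -0.30), while in GC minus TW it falls from 0.28 to 0.05 with quantile normalization, below the all-probe median of 0.10.

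The immunoproteasome cutting subunits PSMB8 and PSMB9 fell in granulosa cells, while the core median was above 0. PSMB8 read -0.16, -0.48, -0.91, -1.51 and 0.15 in GC ED, and -2.53, -3.24, -1.79, -2.21 and -1.55 in GC PO. All 5 GC PO arrays lay below all 5 ED arrays, and the fall was 3.21-fold (a log2 difference of -1.68 ± 0.57, n = 5 and 5; limma adjusted p = 0.028). PSMB9 read 2.22, 1.60, 1.39, 0.82 and 1.25 in GC ED and -0.36, -0.79, 0.55, -0.48 and 0.32 in GC PO, again without overlap. The PSMB9 fall was 3.05-fold (-1.61 ± 0.53, n = 5 and 5; limma adjusted p = 0.0246). Within each of the 5 slides both genes were lower at PO, by values from -2.77 to -0.70 for PSMB8 and from -2.58 to -0.84 for PSMB9.

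At LD the GC arrays fell into unlike values for these genes. PSMB8 read -2.08, -3.10, -3.09, -0.53 and -0.24, and PSMB9 read -0.76, -0.63, -0.61, 1.96 and 1.53, so that for both genes arrays 1 to 3 lay with the PO arrays and arrays 4 and 5 with the ED arrays. The ED to LD differences were -1.23 ± 0.57 (PSMB8, limma adjusted p = 0.337) and -1.16 ± 0.53 (PSMB9, limma adjusted p = 0.33). On the same arrays the core median deviation was 0.18, 0.29 and 0.35 (arrays 1 to 3) and 0.14 and -0.33 (arrays 4 and 5), and the granulosa marker mean was 2.07, 0.49 and -0.11, then 2.09 and 2.56. The calls in PO minus ED held under all 5 scalings. They were lost for PSMB8 without GC ED 1, 2 or 5 or GC PO 1 or 2 (adjusted p 0.0511 to 0.0676) and for PSMB9 without GC ED 1 or GC PO 2 (0.0601 and 0.0549).

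In the theca wall neither gene was called in any stage comparison. PSMB8 read -1.45, -1.47, -1.12, -1.64 and -2.10 at TW ED and -0.14, -2.59, -1.16, 0.47 and -0.82 at TW PO, with values from -2.58 to 0.26 at LD. PSMB9 read 1.30, 0.82, 0.95, 1.79 and 0.54 at TW ED and 2.05, 0.72, 1.16, 1.80 and 1.39 at TW PO. The stage change differed between the layers for both, by -2.39 ± 0.76 for PSMB8 (limma adjusted p = 0.0189) and -1.96 ± 0.58 for PSMB9 (limma adjusted p = 0.0119). These calls held under all 5 scalings, and without slide 7 the PSMB8 difference was -2.04 with an adjusted p of 0.0528. Over all stages PSMB9 was lower in GC than in TW, with a difference of -0.69 ± 0.23 (n = 15 and 19; limma adjusted p = 0.0116), and PSMB8 differed by -0.42 (limma adjusted p = 0.241). This PSMB9 difference was -0.088 with median centring (adjusted p = 0.743), and without slide 7 it missed the threshold (-0.56, adjusted p = 0.0574).

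The third immunoproteasome cutting subunit, PSMB10, did not share this fall. It read 0.54, 0.94, 1.23, -0.01 and 1.05 in GC ED, 0.46, 0.13, 0.61, 0.75 and 0.99 in GC LD, and 0.83, 0.19, 1.19, 0.74 and 1.26 in GC PO. The groups overlapped throughout, with a PO minus ED difference of 0.09 ± 0.28 (n = 5 and 5; limma adjusted p = 0.821). The cap subunits PSME1 and PSME2 differed by 0.02 ± 0.23 (limma adjusted p = 0.964) and 0.36 ± 0.26 (limma adjusted p = 0.305). PSME1 read 2.66, 2.65, 2.41, 2.26 and 2.70 in GC ED and 2.57, 2.04, 2.65, 2.80 and 2.68 in GC PO. PSME2 read 3.46, 3.1, 3.06, 2.77 and 3.39 against 3.64, 2.95, 3.78, 3.45 and 3.74. In all, 2 of the 5 immunoproteasome genes were called in GC PO minus ED, both lower, 2 in the difference between the layers, also both lower, and none in TW PO minus LD. Of all probes, 19.3% were called lower and 40.0% either way in the first of these, and 15.8% lower and 28.5% either way in the second, so a count of 2 of 5 is not a result about this class as a whole. Between the layers PSME1 was lower in GC, with a difference of -0.34 ± 0.13 (limma adjusted p = 0.0308), but turned to 0.25 with median centring.

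Leukocytes also carry the immunoproteasome, so the values of their markers are given here. From ED to PO, 8 of the 19 leukocyte markers rose and 1 fell in GC, with a median of 1.45, against 20.7% of all probes called higher and a median of 0.10. The mean marker level in GC lay below that of every TW group at each stage. In the theca wall 15 of the 19 rose from ED to PO, with a median of 1.79, against 15.3% of all probes called higher, and PSMB8 differed by 0.71 and PSMB9 by 0.35 there. The part of leukocyte RNA in the PSMB8 and PSMB9 values was not tested.

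Of 11 tested genes of the route that loads peptides on class I molecules, 3 fell and none rose in GC from ED to PO, with a median of -0.65. With 19.3% of all probes called lower and 40.0% either way, this count is near the background. The 3 were the peptide trimmers ERAP1 (-2.33 ± 0.69, adjusted p = 0.0149) and ERAP2 (-1.98 ± 0.45, adjusted p = 0.00308) and the chaperone CALR (-0.65 ± 0.23, adjusted p = 0.0365). TAP1 and TAP2 form the transporter that carries proteasome products into the endoplasmic reticulum, and lie beside PSMB8 and PSMB9 on chromosome 20. TAP2 read 3.17, 3.14, 2.31, 3.01 and 2.24 in GC ED and 1.77, 0.68, 1.89, 1.72 and 1.86 in GC PO. These groups did not overlap, but the difference of -1.19 ± 0.48 missed the threshold (n = 5 and 5; limma adjusted p = 0.0608), as did TAP1 at -1.03 ± 0.44 (limma adjusted p = 0.073). The class I light chain B2M differed by -0.09 ± 0.29 (limma adjusted p = 0.832).

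TAP1 went up in the theca wall. It read -1.46, -1.37, -1.54, -2.32 and -2.04 at TW ED and -0.48, -0.35, -0.88, -0.28 and -0.89 at TW PO. Without overlap, the rise was 1.17 ± 0.28 (n = 5 and 5; limma adjusted p = 0.0073), and the change differed between the layers by -2.21 ± 0.52 (limma adjusted p = 0.00225). The difference between layers was also called for TAP2 (-1.39 ± 0.51, adjusted p = 0.04), ERAP1 (-3.18, adjusted p = 0.00204) and ERAP2 (-1.85, adjusted p = 0.0125).

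**Figure D4:**
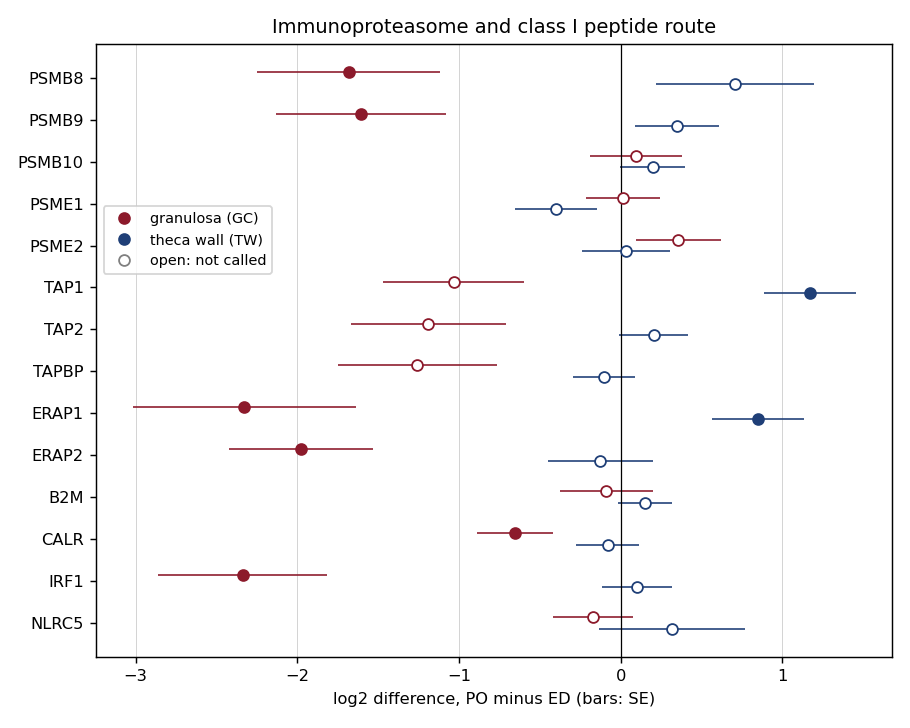
Log2 difference PO minus ED ± SE in GC (red) and TW (blue) for the immunoproteasome subunits, the genes of class I peptide loading and interferon-route regulators. The horizontal axis is the log2 difference and open points were not called. PSMB8 (-1.68) and PSMB9 (-1.61) lie left of 0 in GC and PSMB10 at 0.09, while TAP1 is -1.03 in GC and 1.17 in TW.

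Interferon-responsive genes as a whole did not fall in granulosa cells. Of 21 tested, 8 rose and 1 fell from ED to PO, with a median of 0.33 (all probes: 20.7% higher and 40.0% either way). ISG15, a ubiquitin-like interferon product, rose by 3.76 in GC (adjusted p = 0.0019) and by 3.76 in TW, and IRF9 and MX1 rose by 2.68 and 2.03 in GC. IRF1, a transcription factor that acts at immunoproteasome promoters, was the 1 that fell. It read -1.80, -2.67, -2.08, -2.34 and -2.14 in GC ED, -4.20, -3.68, -3.73, -1.93 and -1.60 in GC LD, and -4.49, -3.34, -5.21, -4.04 and -5.64 in GC PO. Its PO arrays all lay below its ED arrays, with a difference of -2.34 ± 0.52 (n = 5 and 5, limma adjusted p = 0.00293). At LD, arrays 1 to 3 were low and arrays 4 and 5 high, as for PSMB8 and PSMB9. PSMC3IP, which is not a proteasome gene, had the same split at LD. Whether IRF1 bears on PSMB8 and PSMB9 was not tested.

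Of the assembly factors, PSMD9 had the largest called rise from ED to PO in granulosa cells. PSMD9 is a chaperone that helps to build the ATPase ring. It read 1.43, 0.76, 0.49, 0.78 and 1.42 in GC ED, 1.62, 2.24, 2.49, 1.45 and 1.32 in GC LD, and 2.76, 2.51, 2.70, 3.14 and 2.83 in GC PO. PO lay above both other stages on every array, and the rise from ED was 3.51-fold (1.81 ± 0.28, n = 5 and 5; limma adjusted p = 0.00034). The separate probe A_69_P065506 gave 1.61 ± 0.27 (limma adjusted p = 0.000605), the 5 slides gave 1.32 to 2.37, and no alternative ended the call. The step from LD to PO was called at 0.97 ± 0.28 (limma adjusted p = 0.0348), but was lost under 3 scalings, with slide as a block and without 7 of the single arrays (GC LD 1, 4 or 5, or GC PO 1, 3, 4 or 5), at an adjusted p up to 0.095.

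In the theca wall PSMD9 was already at the level that GC reached at PO. It read 2.95, 2.83, 3.07, 2.30 and 2.95 at TW ED, 2.43, 2.83 and 3.50 (lowest, median and highest, n = 9) at TW LD, and 2.74, 2.40, 2.84 and 2.43 (n = 4) at TW PO. The TW ED arrays all lay above the GC ED arrays, while at PO the layers overlapped. The change differed between the layers by 2.03 ± 0.35 (limma adjusted p = 0.000159), under all 5 scalings. Over all stages PSMD9 was lower in GC, with a difference of -0.94 ± 0.14 (limma adjusted p = 8.12e-07), against the direction of most core subunits.

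PSMD10, another chaperone of the base, also known as gankyrin, fell in the theca wall and not in granulosa cells. It read 1.05, 1.01, 1.10, 0.98 and 1.35 at TW ED, 0.63, 1.15 and 1.55 (lowest, median and highest, n = 9) at TW LD, and 0.13, 0.43, 0.03, 0.47 and -0.26 at TW PO. No TW PO array reached the lowest of the other stages, and the fall from LD was 1.94-fold (-0.96 ± 0.16, n = 5 and 9; limma adjusted p = 0.00574). The second, non-overlapping probe gave -0.90 ± 0.26 (limma adjusted p = 0.0311), and from ED the difference was -0.94 ± 0.19 (limma adjusted p = 0.00225). All slides with both stages gave a negative value, from -1.30 to -0.49, and both calls held under every alternative run. In GC it read 1.85, 1.42, 1.45, 0.54 and 1.82 at ED and 1.07, 1.19, 1.21, 1.74 and 1.22 at PO, a difference of -0.13 (limma adjusted p = 0.723). The difference between the layers, 0.81 ± 0.31, was at an adjusted p of 0.0472 (limma), held under 2 of 5 scalings, and was lost without any of 13 single arrays (adjusted p 0.0552 to 0.116).

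POMP, an assembly factor of the 20S core, rose in GC. It read 4.07, 3.46, 3.57, 3.37 and 3.57 at ED, 4.37, 4.41, 4.62, 3.85 and 3.39 at LD, and 4.67, 4.48, 4.71, 4.61 and 4.74 at PO. PO lay above ED on every array, and the rise was 2.05-fold (1.03 ± 0.24, n = 5 and 5; limma adjusted p = 0.00409), called under all alternatives. PSMD5, a base chaperone, read 0.56, 0.76, 0.52, 0.35 and 0.02 at GC ED and 0.99, 1.01, 1.01, 1.59 and 1.24 at GC PO. Although these did not overlap, its difference of 0.73 ± 0.28 missed the threshold (limma adjusted p = 0.0508), while its change differed between the layers by 1.18 ± 0.36 (limma adjusted p = 0.0149). PSMD5 was also higher in GC than in TW over all stages, by 0.50 ± 0.14 (limma adjusted p = 0.00387).

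**Figure D5:**
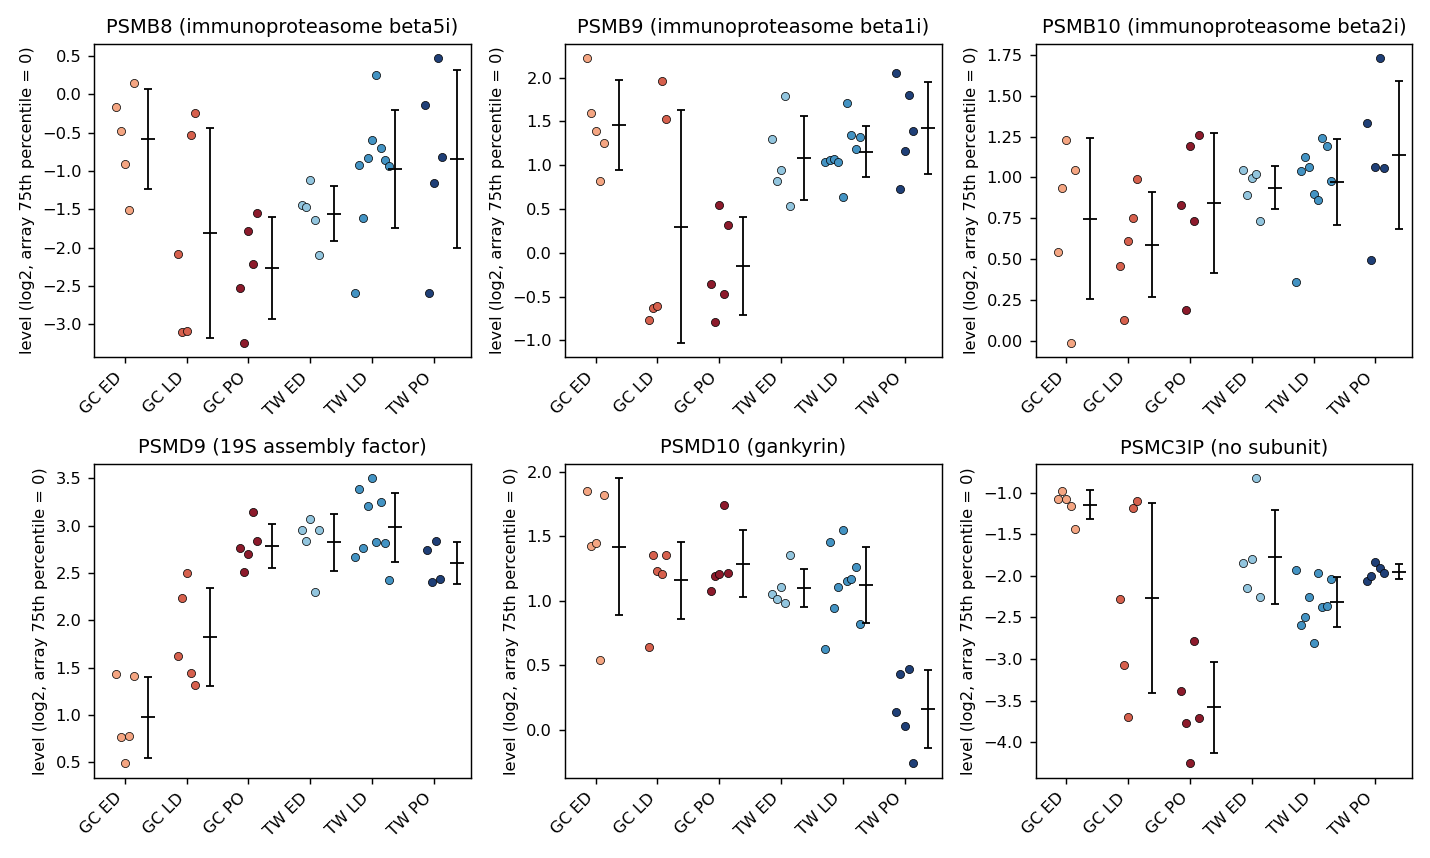
Log2 level relative to the array's 75th percentile of PSMB8, PSMB9, PSMB10, PSMD9, PSMD10 and PSMC3IP on each array, by layer and stage; points are arrays and the bars give the mean ± SD. At GC PO the arrays of PSMB8, PSMB9 and PSMC3IP lie below and those of PSMD9 above the GC ED arrays, and at TW PO the PSMD10 arrays lie between -0.26 and 0.47, below the other TW arrays.

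The inhibitor PSMF1, which binds the ends of the 20S core, rose in GC. It read -0.03, -0.74, -0.70, -1.14 and -0.28 at ED, -0.59, -0.35, 0.81, -0.77 and -0.19 at LD, and -0.23, 0.74, 1.45, 0.26 and 0.66 at PO. Only PO array 1 lay within the ED range, and the rise was 1.15 ± 0.35 (n = 5 and 5; limma adjusted p = 0.018). It was called under all 5 scalings, and without GC PO 3 it was 0.94 with an adjusted p of 0.0528. The activator PSME4 differed by 0.35 (limma adjusted p = 0.398), and was higher in GC than in TW by 0.57 ± 0.13 (limma adjusted p = 0.000671), as was PSMF1 by 0.43 (limma adjusted p = 0.0172).

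The tissue-restricted subunits were dim. PSMA8, the testis form of an alpha subunit, read -8.96 to -5.04 on the GC PO arrays and was well above background on 4 of 5 GC ED, 2 of 5 GC LD and 4 of 5 GC PO arrays, but on all 19 TW arrays. It was lower in GC, with a difference of -1.92 ± 0.39 (n = 15 and 19; limma adjusted p = 9.99e-05), a difference that rests on very dim spots. PSMB11, the thymus form of a cutting subunit, was well above background on 1 GC ED, no GC LD and 2 GC PO arrays of 5 each, and on 2 of 5 TW ED, 5 of 9 TW LD and 5 of 5 TW PO arrays. No fold is given for it.

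Of the 3 loci that matched the names without being proteasome genes, PSMC3IP changed most clearly. PSMC3IP is a cofactor of meiotic recombination that also binds nuclear receptors, and its name refers to its binding of PSMC3. It read -1.07, -0.98, -1.07, -1.16 and -1.43 in GC ED, -2.27, -3.07, -3.70, -1.18 and -1.10 in GC LD, and -3.38, -3.77, -4.25, -2.79 and -3.71 in GC PO. GC PO lay below GC ED on every array, by 5.42-fold (-2.44 ± 0.45, n = 5 and 5; limma adjusted p = 0.000841), and its 5 overlapping probes gave -2.44 to -2.28. At LD arrays 1 to 3 were low and arrays 4 and 5 high, as for PSMB8 and PSMB9. In TW it read -1.84, -2.15, -1.79, -0.83 and -2.26 at ED and -2.06, -2.00, -1.83, -1.90 and -1.97 at PO, and the change differed between the layers by -2.26 ± 0.49 (limma adjusted p = 0.00121).

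The other 2 were dim. PDIA2, a protein disulphide isomerase, was well above background on all 5 GC ED arrays and on 1 of 5 GC PO arrays, so the size of its difference there, -2.29 ± 0.65 (limma adjusted p = 0.0114), is not settled. It was -0.54 with normexp, and the second PDIA2 probe gave -0.54 and was not called. In TW, where all ED and PO arrays were well above background, the difference from ED to PO was -1.91 ± 0.66 (limma adjusted p = 0.0421). That call was lost in 14 of 22 alternatives, at an adjusted p up to 0.0893, among them leaving out any single array but TW ED 4, and the value was -0.74 with normexp. PDIA2 was lower in GC than in TW, with a difference of -2.03 ± 0.37 (limma adjusted p = 2.91e-05). LOC100071832 was not well above background on any GC PO array, so it is given as a bound on the main scaling. There GC LD was at least 2.57-fold higher than GC PO (limma adjusted p = 0.00905) and GC ED at least 3.89-fold higher (limma adjusted p = 0.000397). Over the alternatives the log2 difference shrank to as little as -0.40 for PO minus LD and -0.59 for PO minus ED. The bounds therefore do not hold for every scaling. In TW it fell from ED to PO, with a difference of -1.44 ± 0.41 (limma adjusted p = 0.0171). In GC minus TW it was -0.61 (limma adjusted p = 0.0431), a sign that turned under 3 of 5 scalings.

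Where a gene's member probes disagreed in sign, none of those probes was called. PSMA7 ran from -0.55 to 0.24 over its probes in GC minus TW and from -0.17 to 0.23 in TW PO minus ED. In TW PO minus ED, PSMA5 ran from -0.16 to 0.03, PSMC3IP from -0.18 to 0.16, PSMD11 from -0.08 to 0.15 and PSME2 from -0.36 to 0.03. PSMD9 ran from -0.07 to 0.16 in TW LD minus ED. PDIA2 ran from -0.59 to 0.07 in GC LD minus ED and from -0.38 to 1.11 in the difference between the layers. The 5 PSMA7 probes had 1 sign but unlike sizes in GC PO minus ED. Of these, 2 were called (0.58 and 0.67), the brightest missed the threshold (0.57, limma adjusted p = 0.0544), and A_69_P026090 gave 3.08 ± 1.98 (limma adjusted p = 0.235), the highest value of any member probe there and not called.

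Partner genes of the proteasome from other lists were read against the same background, 20.7% of all probes called higher, 19.3% lower and 40.0% either way in GC PO minus ED. In either direction, 4 of 8, 4 of 9, 5 of 10, 5 of 13 and 6 of 14 genes of the lists were called, shares near that background. ADRM1, the ubiquitin receptor of the base, whose name the rule does not match, read 1.91, 1.63, 1.51, 1.22 and 1.30 in GC ED and 2.27, 2.19, 2.55, 2.63 and 2.50 in GC PO. It rose without overlap by 0.92 ± 0.28 (n = 5 and 5; limma adjusted p = 0.0182), and its change differed between the layers by 1.04 ± 0.32 (limma adjusted p = 0.0144). Of 9 tested ubiquitin hydrolases and shuttle factors that dock on the proteasome, 4 rose and none fell in GC PO minus ED. USP14, which trims ubiquitin chains, rose by 2.44 ± 0.46 (adjusted p = 0.000958), the shuttle RAD23B by 2.05 ± 0.25 (adjusted p = 0.000222) and the shuttle UBQLN4 by 1.42 ± 0.28 (adjusted p = 0.00127). In TW, RAD23B fell from LD to PO, with a difference of -0.76 (limma adjusted p = 0.0165), and its change between the layers differed by 3.13 (limma adjusted p = 1.53e-06).

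Of 8 tested assembly chaperones, POMP among them, 2 rose and 2 fell in GC PO minus ED. PSMG1 and PSMG2 form one heterodimer that starts the alpha ring, yet they moved in opposite directions. PSMG1 read 1.66, 1.34, 1.71, 0.85 and 1.34 in GC ED and 2.40, 1.97, 2.49, 2.23 and 2.52 in GC PO, and rose by 0.94 ± 0.28 (n = 5 and 5; limma adjusted p = 0.0146). PSMG2 read 1.73, 2.01, 1.86, 2.16 and 1.77 against 0.51, 0.49, 0.49, 0.09 and -0.43, and fell by 1.67 ± 0.27 (n = 5 and 5; limma adjusted p = 0.000455). ECPAS, which holds core and cap together, fell by 1.00 ± 0.26 in GC (limma adjusted p = 0.00894), and its TW difference from LD to PO was -0.74, also called. PAAF1, a base chaperone, fell there by 0.70.

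Of 10 tested genes of ubiquitin and its activation, 5 rose and none fell in GC PO minus ED. The conjugating enzymes UBE2D1, CDC34 and UBE2D3 rose by 2.62, 1.23 and 1.01, while UBB, a ubiquitin gene, differed by 0.11 ± 0.23 (limma adjusted p = 0.731). Of 13 genes of the p97 unfoldase and its cofactors, 4 rose and 1 fell in GC, with UBXN7 at 1.53, DERL1 at 1.19, UBXN1 at 1.08 and FAF1 at -0.91.

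Proteasome subunit genes are known targets of the transcription factor NFE2L1, and NFE2L2 acts at several of them under oxidative stress. NFE2L1 read -3.75, -3.89, -4.25, -4.32 and -3.72 in GC ED and -4.00, -3.61, -4.23, -1.67 and -3.44 in GC PO, a difference of 0.60 ± 0.39 (n = 5 and 5; limma adjusted p = 0.243). The value turned on PO array 4. NFE2L2 read 0.69, 0.75, 0.92, 0.44 and 0.80 in TW ED and 1.59, 1.18, 1.85, 1.54 and 1.34 in TW PO, a rise without overlap of 0.78 ± 0.19 (n = 5 and 5; limma adjusted p = 0.00634). In GC its difference was -0.82 ± 0.34 (limma adjusted p = 0.065), and the change differed between the layers by -1.60 ± 0.37 (limma adjusted p = 0.00189). Only the RNA of these factors was measured, and whether either bears on the core subunits was not tested. Of the 14 tested genes of this route, 4 rose and 2 fell in GC PO minus ED: BACH1 rose by 1.84 and TXNRD1 by 1.62, while NFE2L3 fell by 3.07 and HMOX1 had a difference of -2.63. MAFF was also called higher, but it was not well above background on any GC ED array, so no size is given. In TW PO minus ED, 7 of the 14 rose and 1 fell, against 15.3% of all probes called higher and 23.7% either way. Of the risers there, MAFF and BACH1 were not well above background on any TW ED array.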

How the data were processed

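Per the labels, total RNA was extracted with TRIzol, reverse transcribed from an oligo(dT) primer and amplified as antisense RNA labelled with Cy3. The deposited intensity values are spot signals read by Agilent Feature Extraction (version 9.5.3.1 per the file headers, 9.1 per the submitters' processing notes), with local background already subtracted in the processed signal. The deposited table of log2 values is of unstated processing. Its columns, whose medians were 7.398 to 7.407, correlated at 0.999995 with quantile-normalized log2 mean signal.

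From the log2 of the processed signal the 75th percentile of the same array was taken away (772 to 1980 on the linear scale). Controls and spots with an outlier flag did not enter, saturated ones did, and repeated spots of a probe were averaged. Names came from the files, updated through the RefSeq table of the TB-T2T assembly, by which 22998 probes got a symbol. limma 3.58.1 (R 4.3.3) was fitted to all probes well above background on at least 5 arrays, within each layer for stages and over all 34 arrays for the layers and their difference in PO minus ED. P-values were two-sided, adjusted by Benjamini-Hochberg over all probes tested and called under 0.05. The fit was tested on simulated data. The number of arrays limits the precision, and a gene that was not called is not shown to be unchanged.

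The member probe with the highest mean stood for its gene. Named were PSMB5 to PSMB10, PSME1, PSME2, PSME4, PSMF1, PSMD14, ADRM1 and PSMC3IP in any case, then up to 6 called members per direction and comparison by size, or the 3 smallest p-values where none was called. From the other lists, up to 3 called genes per direction were named, with TAP1, TAP2, B2M, NFE2L1, NFE2L2, POMP and UBB, and members whose probes disagreed in sign. PSMA2, PSMC1, PSMD13, PSMB3 and PSMA4 in GC PO minus ED, and PSMD1, PSMD7 and PSMD8 in the difference between layers, were named after their values were seen. The members and the lists were chosen with earlier results of these data known. Alternatives were other scalings (median centring, quantile, normexp with an offset of 50, the deposited table), filters, slide blocks and left-out arrays.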

Additional observations from a re-analysis of the deposited data

Results flagged for a closer look

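Within groups, 28 of 288 sets of values held an array far from the others, judged by the gap of the highest or lowest array to its neighbour as a share of the group's range (above Dixon's critical value, which chance passes in about 1 of 20 groups). By array they clustered: 6 lay on TW ED 2, 5 on GC LD 5, 5 on GC PO 4 and 3 on GC ED 1. TW ED 2 was low for PSMA2 (share of range 0.717), PSMB1 (0.878), PSMB2 (0.834), PSMB3 (0.719), PSMC5 (0.866) and PSMD1 (0.824). GC LD 5 was low for PSMA5 (0.792), PSMB3 (0.767), PSMC4 (0.773), PSMC5 (0.786) and PSMD3 (0.734). GC PO 4 was low for PSMC6 (0.885), PSMD12 (0.859) and PSMA8 (0.761) and high for PSMB5 (0.945) and PSMD10 (0.783). GC ED 1 was high for PSMA4 (0.793), PSMA7 (0.723) and POMP (0.716).

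The remaining gaps were spread. GC ED 2 was low for PSMB3 (0.760), GC PO 1 low for PSMA6 (0.844), GC PO 2 low for PSMB4 (0.720) and PSMD7 (0.723), and GC LD 1 low for PSMD10 (0.796). TW LD 1 was low for PSMB10 (0.567) and TW PO 2 high for PSMD7 (0.803). TW PO 5 was low for PSMC6 (0.861) and for the core median deviation (0.731).

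The change from ED to PO differed between GC and TW, by the interaction in limma, for 15 of the 47 named loci. Of all probes, 28.5% were called there in either direction, 12.8% higher and 15.8% lower, so this count is near the background. The GC change was the more positive for PSMD9 (2.03), PSMD5 (1.18), PSMD6 (1.00), PSMB7 (0.99), PSMA6 (0.91), PSMA2 (0.86), PSMC1 (0.86), PSMD14 (0.86), PSMD10 (0.81), PSMD7 (0.78), PSMD1 (0.76) and PSMD8 (0.73). It was the more negative for PSMB8 (-2.39), PSMC3IP (-2.26) and PSMB9 (-1.96).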

How the results depend on the processing

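Of the alternative values computed, 2849 were taken as the same, 363 were weaker, 30 stronger, 24 moved and 22 reversed. For a gene with a p-value, the same meant an equal direction and side of the threshold. For a count it meant within 1.5 times. Core medians and values without a p-value have no threshold, and for them it meant a shift below the pooled SD of arrays within groups. The number of core subunits called moved with the arrays in the fit and with scaling. Against 8 in GC PO minus ED it was 16 with all 34 arrays in the fit, 2 in the deposited table, 4 with normexp and 2 with quantile normalization. Against 0 in GC PO minus LD it was 5 with all arrays and 2 with median centring. Against 4 in TW PO minus LD it was 2 with all arrays, 7 in the deposited table, 21 with median centring, 2 with no filter, 9 with normexp, 7 with flagged spots kept and 1 with slide as a block. Against 1 in TW PO minus ED it was 0 with all arrays or no filter, 6 in the deposited table, 4 with median centring, 5 with normexp, and 2 with quantile normalization, slide as a block or without slide 7. Against 21 in GC minus TW it was 11 in the deposited table, 10 with normexp and 7 with quantile normalization. Against 9 in the interaction it was 4 in the deposited table, 4 with normexp, 4 with quantile normalization, 21 with median centring and 14 with flagged spots kept. Leaving out single arrays gave 0 to 2 in GC PO minus LD, 3 to 12 in GC PO minus ED, 1 to 7 in TW PO minus LD, 0 to 1 in TW PO minus ED and 8 to 16 in the interaction. The causes of these shifts were not tested.

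All reversed values lay in GC minus TW. With normexp and with quantile normalization they were 0.089 and 0.22 for LOC100071832, -0.052 and -0.071 for PSMC5, -4.57e-05 and -0.026 for PSMD13, -0.093 and -0.0086 for PSMD8, and -0.031 and -0.010 for SEM1. In the deposited table they were 0.17 for LOC100071832, -0.075 for PSMD8 and -0.0010 for SEM1, and with median centring 0.25 for PSME1. Within the slides that hold both layers at LD they were 0.052 for LOC100071832, -0.13 for PSMB7, -0.0080 for PSMC3, -0.43 for PSMD10, -0.027 for PSMD5, -0.38 for PSMD6, -0.0031 for PSMD8 and -0.17 for PSMF1.

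The labels give no replicate numbers shared across groups, so arrays were not paired by number, and the numbers here follow accession order and only name arrays. Arrays were grouped by slide instead, as a block and within slides. Dim members (PSMA8, PSMB11, PDIA2 and LOC100071832) are limited by signal over background.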
